A study of Mus musculus with 9 samples.

Results

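Complement is a set of plasma and cell-surface proteins that mark cells, debris and immune complexes for uptake and that can open pores in membranes. The classical pathway starts when C1q binds its target and switches on the proteases C1r and C1s, which cleave C4 and C2. The lectin pathway reaches the same step through MASP proteases, and the alternative pathway runs through factor B, factor D and properdin. All of them meet at C3. The liver secretes most of these proteins into plasma, whereas C1q comes mainly from macrophages and dendritic cells in tissues.

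The genes described here are 9 listed complement genes in the mouse ovary: C1qa, C1qb, C1qc, C3, C4a, C4b, Cfb, Cfd and Serping1. They were chosen by symbol, as all probes annotated to 1 of these names. Probes were found for 7 of the 9, 12 probes in all among the 45281 on the array and 7 of 19057 gene symbols; C3 and Cfd were not analysed here. Of the 12 probes 9 were measured above background on at least 2 arrays and entered the tests, which left 6 genes: C1qa, C1qb, C1qc, C4a, C4b and Serping1. The probe that stands for each of these 6 was above background on all 6 arrays, so none of them entered only through the group in which it was high. Cfb did not enter.

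Total ovary RNA was hybridised to Illumina expression BeadChips in 3 groups that the labels give as strain C57BL/6: wild type controls (WT), models of premature ovarian failure (called POF), and recipients of transplanted spermatogonial stem cells (SSCTR), the germline stem cells of the testis. The labels do not say how ovarian failure was brought about, whether the recipients had it before the transplant, the animals' age, when ovaries were taken, or whether replicates are separate animals, so p-values measure only the spread between these samples, which may be technical. The columns of replicate 1 are computed from those of replicates 2 and 3, so each group has 2 measured arrays (n = 2), and this small number limits the precision of every value. Between 16040 and 18041 probes were above background on an array. In the ovary list, 12 of 15 genes were tested, and Amh was below background on all 6 arrays. Of these 12, 7 passed the test as lower in POF than in WT, among them the oocyte genes Gdf9 and Zp3. Of all features tested 4.96% passed as lower in POF. Levels are log2 intensities after background correction; an offset added before the log keeps absent transcripts off 0, so changes of dim probes are understated. Levels of different probes are not comparable with each other. In ovary tissue as a whole, more cells of a type and more RNA per cell cannot be told apart.

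All 6 tested genes were higher in POF than in WT and lower in SSCTR than in POF. C4b, C1qa, C1qb and C4a were 2.00-fold to 2.26-fold higher in POF than in WT, Serping1 was 1.85-fold and C1qc 1.82-fold higher. Against POF, the SSCTR ovaries were 3.15-fold lower for C4b, 3.05-fold lower for C4a, 2.66-fold for C1qb, 2.16-fold for C1qc, 2.13-fold for Serping1 and 2.02-fold for C1qa. Between SSCTR and WT none of the 6 passed the test. Tests are from limma, with all 3 groups in 1 fit; a call needs a p under 0.05 after Benjamini-Hochberg adjustment, taken across the 13872 features. The comparisons of POF with WT and of SSCTR with POF share the POF arrays, so they are not independent.

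**Figure D1:**
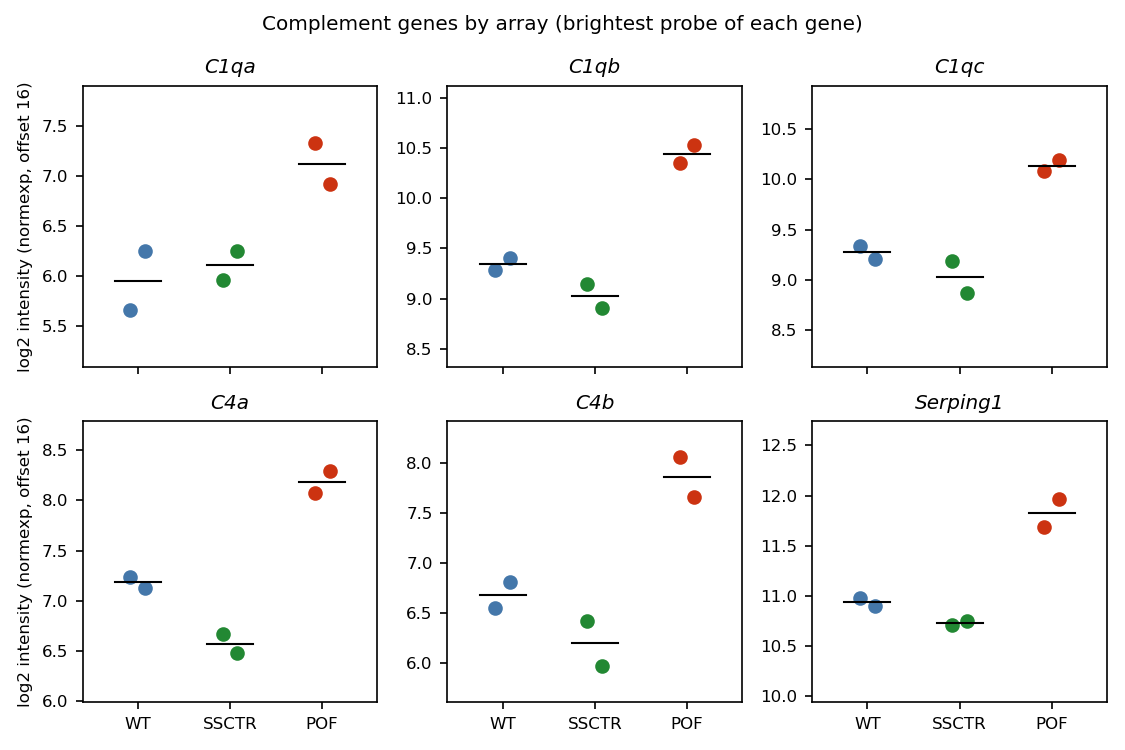
Log2 intensity (vertical axis, each panel spanning the same range) of the brightest probe of each tested complement gene in WT, SSCTR and POF ovaries; points are the 2 arrays of a group and lines are their means. In all 6 panels both POF arrays lie above all WT and SSCTR arrays.

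C1qa, C1qb and C1qc encode the A, B and C chains that assemble into C1q, the recognition part of the classical pathway. The 3 genes lie side by side on chromosome 4 in the RefSeq gene table, with 0 other genes between C1qb and C1qc and 0 between C1qc and C1qa. C1qa had log2 levels of 5.66 and 6.25 in WT, 5.96 and 6.25 in SSCTR, and 7.33 and 6.92 in POF. Both POF arrays were above the other 4, while WT and SSCTR overlapped. The change of C1qa was 1.17 ± 0.24 (log2, SE, n = 2 per group) in POF against WT (limma adjusted p = 0.0172) and -1.01 ± 0.24 in SSCTR against POF (limma adjusted p = 0.0283). On the scale without background correction the same changes were 0.63 and -0.56, with adjusted p of 0.00553 and 0.00994 from limma.

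C1qb read 9.28 and 9.40 in WT, 9.14 and 8.91 in SSCTR, and 10.35 and 10.53 in POF. Its 2 SSCTR arrays were the lowest of the 6 and its 2 POF arrays the highest. It was higher in POF than in WT by 1.10 ± 0.18 (limma adjusted p = 0.00557), and the change from POF to SSCTR was -1.41 ± 0.18 (limma adjusted p = 0.00134).

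C1qc read 9.34 and 9.20 in WT, 9.18 and 8.87 in SSCTR, and 10.08 and 10.19 in POF. Its groups had the order of those of C1qb, with POF apart from the rest and the nearest WT and SSCTR arrays close to each other. Its change was 0.87 ± 0.18 in POF against WT (limma adjusted p = 0.0173) and -1.11 ± 0.18 in SSCTR against POF (limma adjusted p = 0.00497).

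Because the neighbouring C1q genes moved together, the 250 bases before the annotated start are shown for C1qb and C1qc, the tested members that matched RefSeq's promoter windows (GRCm38.p6). C1qb lies on the minus strand at chr4:136886201-136886450 and C1qc on the minus strand at chr4:136892915-136893164. Capitals mark GAGGAA or its reverse complement, the core of the site of PU.1, a transcription factor of macrophages and other myeloid cells.
C1qb: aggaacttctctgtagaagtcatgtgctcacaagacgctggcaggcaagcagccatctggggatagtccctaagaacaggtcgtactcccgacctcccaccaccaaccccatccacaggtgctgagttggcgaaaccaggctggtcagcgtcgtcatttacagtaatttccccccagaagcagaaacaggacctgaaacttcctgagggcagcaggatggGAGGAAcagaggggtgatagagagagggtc
C1qc: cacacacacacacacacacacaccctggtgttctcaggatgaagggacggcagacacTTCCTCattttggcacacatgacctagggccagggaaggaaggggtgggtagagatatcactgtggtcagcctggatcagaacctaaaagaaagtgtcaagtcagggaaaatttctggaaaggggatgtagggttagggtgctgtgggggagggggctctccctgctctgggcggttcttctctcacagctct
Each window held 1 match, starting at -30 on the forward strand of C1qb and at -193 on the reverse strand of C1qc. The 6 letters were searched on both strands, and 23.3% of the 32851 windows of this length hold them. Neither window held the interferon-stimulated response element (3.0% of windows) or TTCNNNGAA, a STAT site (7.0% of windows); both were searched on both strands. A match is a description of letters and no measurement of binding.

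C4 is the protein that C1s and the MASP proteases cleave, and its larger fragment attaches to the target surface and takes part in the enzyme that cleaves C3. In the mouse C4b encodes C4, and C4a encodes the closely related sex-limited protein; the RefSeq table, built on C57BL/6J, lists C4a as a transcribed pseudogene. The pair is so alike in sequence that a probe for one may also bind the other's RNA, so the 2 genes are not independent evidence.

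The brightest C4b probe read 6.55 and 6.81 in WT, 6.43 and 5.97 in SSCTR, and 8.05 and 7.66 in POF. The 3 groups did not overlap, with POF highest and SSCTR lowest. It was higher in POF than in WT by 1.17 ± 0.22 (limma adjusted p = 0.0115), and in SSCTR against POF it changed by -1.66 ± 0.22 (limma adjusted p = 0.00198). The other C4b probes stayed near background. One was above background on 1 WT and 1 POF array only, where it changed by 0.03 (95% interval -0.44 to 0.50; limma adjusted p = 0.949 in the fit of all probes), and the other, above background on 1 WT array, did not enter. With the mean of the C4b probes that entered in place of the brightest, the change in POF against WT was 0.60 and lost its call (limma adjusted p = 0.0787). Without background correction the changes of the brightest probe were 0.77 and -1.02, both still called.

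The brightest C4a probe read 7.24 and 7.13 in WT, 6.67 and 6.48 in SSCTR, and 8.07 and 8.30 in POF, again with 3 groups that did not overlap. Its change was 1.00 ± 0.18 in POF against WT (limma adjusted p = 0.00824) and -1.61 ± 0.18 in SSCTR against POF (limma adjusted p = 0.000656). A second C4a probe had the same order, with 5.38 and 5.50 in WT, 4.71 and 4.74 in SSCTR, and 6.66 and 5.90 in POF. It was above background on neither SSCTR array, so SSCTR was at least 2.69-fold lower than POF there (limma adjusted p = 0.00450 in the fit of all probes), and its difference of 0.84 ± 0.25 between POF and WT did not pass (adjusted p = 0.0686 in that fit). The third C4a probe was below background on all 6 arrays.

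Serping1 encodes C1 inhibitor, the serpin that inactivates C1r, C1s and the MASP proteases and so restrains the start of the cascade. Its brighter probe read 10.98 and 10.90 in WT, 10.71 and 10.75 in SSCTR, and 11.68 and 11.97 in POF. Groups did not overlap, and the gap between POF and the rest exceeded the spread within any group. The change was 0.89 ± 0.17 in POF against WT (limma adjusted p = 0.0134) and -1.09 ± 0.17 in SSCTR against POF (limma adjusted p = 0.00452). The second Serping1 probe had 9.79 and 9.67 in WT, 9.27 and 9.38 in SSCTR, and 10.50 and 10.88 in POF, and passed in both comparisons, at 0.96 ± 0.19 and -1.37 ± 0.19 (limma adjusted p = 0.0163 and 0.00249 in the fit of all probes). Both Serping1 probes thus had the same order of groups.

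Cfb encodes factor B, the protease subunit of the alternative pathway's C3-cleaving enzyme. Its single probe read 4.59 and 4.61 in WT, 4.53 and 4.53 in SSCTR, and 4.50 and 4.38 in POF. None of these values was above background (detection p from 0.112 to 0.450), so no difference was detectable for Cfb.

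**Figure D2:**
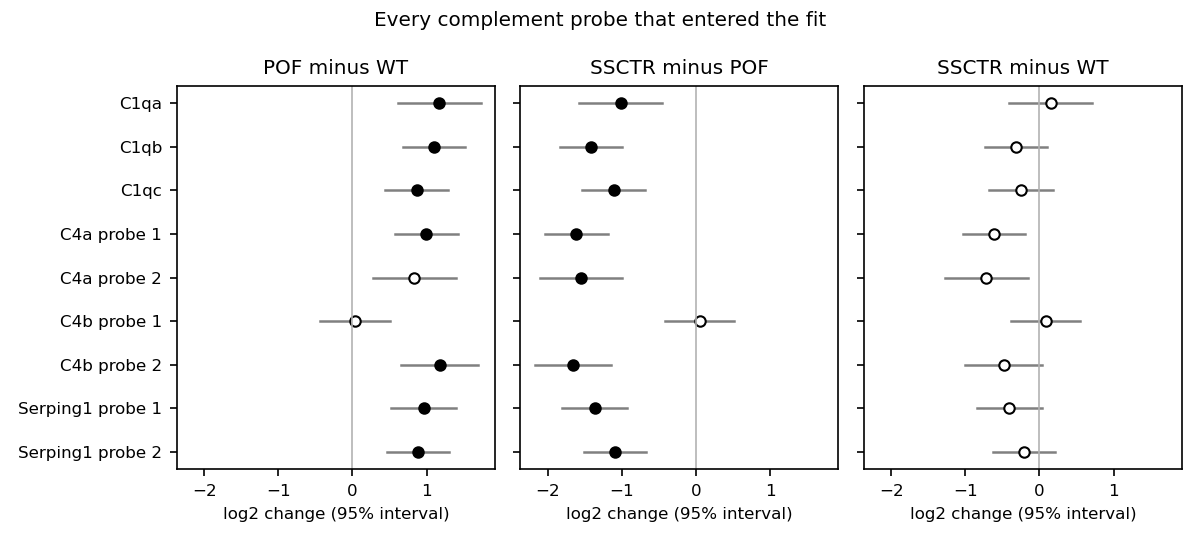
Log2 change with its 95% interval (horizontal axis) for the 9 complement probes that entered the fit of all probes, in the 3 comparisons; filled points passed an adjusted p of 0.05 in that fit. All 9 probes lie to the right of 0 for POF minus WT, the dim C4b probe only just, and all but that probe to the left for SSCTR minus POF; for SSCTR minus WT no point is filled.

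Setting POF against WT shows how ovaries of the failure model differed from wild type. All 6 tested complement genes passed there, each upward, against a background of 6.98% of all features called higher in POF. The members were chosen with earlier results of these data known, and C4a and C4b are not independent evidence. The count is thus a description and no test of the set. Their median change was 1.05, beside -0.03 over all features. Arrays of POF and WT did not overlap for any of the 6, with POF higher; over all features that held for 25.6%, and the reverse, POF lower, for 29.3%. The number that passed depended on single arrays: 2 genes remained called without WT replicate 2 (C1qb and C4a), 3 without WT replicate 3 (C1qa, C1qb and C4b), 3 without POF replicate 2 (C1qb, C4a and Serping1) and 1 without POF replicate 3 (C4b). In each of these fits a group is down to 1 array, which is assumed to vary like the others, and all 6 changes stayed positive.

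Setting SSCTR against POF shows how recipient ovaries differed from those of the model. Again all 6 passed, each downward, where 7.25% of all features were called lower in SSCTR. The same limits hold for this count. Their median change was -1.26, beside 0.03 over all features. SSCTR arrays lay below POF arrays for all 6, as for 26.6% of all features, while 28.8% had all SSCTR arrays higher. Without any 1 of the SSCTR or POF arrays, C1qb, C1qc, C4a, C4b and Serping1 remained called, and C1qa did not (adjusted p from limma of 0.0635 to 0.160).

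Setting SSCTR against WT shows how far recipients were from controls. None of the 6 passed in limma, where 3.31% of all features did (1.81% higher and 1.5% lower in SSCTR); at an unadjusted p under 0.05 there was 1, C4a, where 17.6% of all features were below it. The C4a difference lay among the lowest 4.82% of all features, and those of the other 5 between 8.25% and 70.4%. The differences were -0.61 for C4a (95% interval -1.02 to -0.21; limma adjusted p = 0.111), -0.48 for C4b (-0.99 to 0.03), -0.32 for C1qb (-0.72 to 0.09), -0.25 for C1qc (-0.66 to 0.17), -0.21 for Serping1 (-0.60 to 0.19) and 0.15 for C1qa (-0.40 to 0.71). Arrays of the 2 groups were separate, SSCTR lower, for 5 of the 6, a pattern that 25.3% of all features had. For every tested member POF was thus the highest group, while WT and SSCTR, next to each other in the order, did not pass the test. The intervals do not show equal levels.

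**Figure D3:**
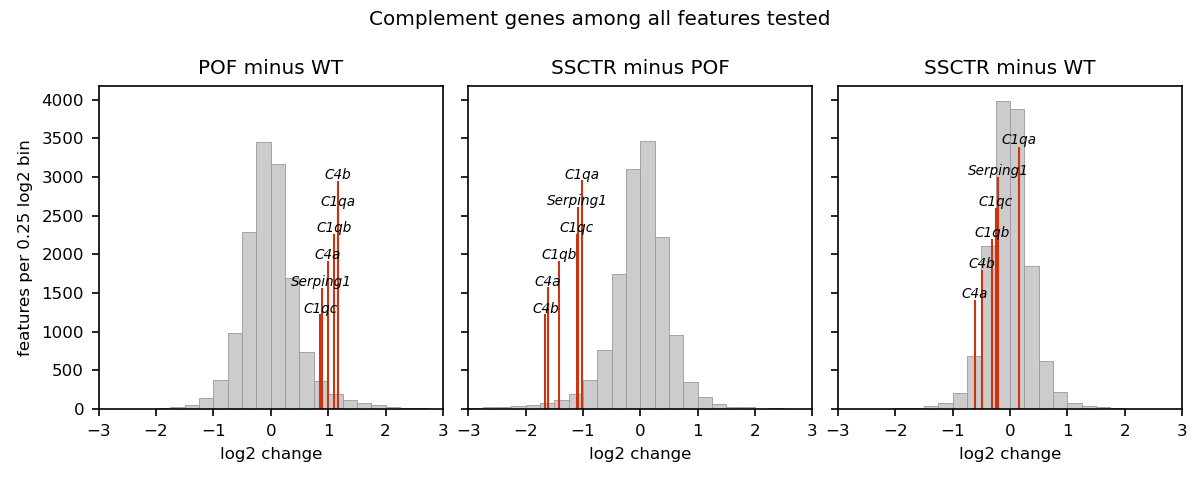
Histogram of the log2 change of all 13872 features (grey bars, number of features per bin of 0.25; changes beyond 3 in size are not drawn) with the 6 tested complement genes as red lines, whose heights only separate the names. The members lie in the right tail for POF minus WT, in the left tail for SSCTR minus POF and spread from the left side to just right of 0 for SSCTR minus WT, with C4a furthest left.

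The rest of the pathway did not move as 1 block. Of 50 other complement genes listed, 5 were not analysed here, 22 were below the filter and 23 were tested. In POF against WT 4 of the 23 were higher, 3 were lower and 16 did not pass, with a median of 0.05. In SSCTR against POF 2 were higher, 4 were lower and 17 did not pass (median -0.20), and in SSCTR against WT 1 was higher and 22 did not pass (median -0.08). C7, counted among the 4 higher in POF and the 4 lower in SSCTR, entered only through the POF arrays. With genes not above background in 1 group set to their bound, the 3 medians were 0.05, -0.13 and -0.01. The background shares are those above, with 4.96% of features called lower in POF than in WT, 5.33% called higher in SSCTR than in POF and 1.81% called higher in SSCTR than in WT.

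Among the proteases and recognition proteins, C2, the partner of C4 in the classical pathway, read 10.54 and 10.76 in WT, 11.68 and 11.48 in SSCTR, and 11.46 and 11.40 in POF. It was therefore high in both POF and SSCTR: 0.78 ± 0.18 above WT in POF (limma adjusted p = 0.0231) and 0.92 ± 0.18 above WT in SSCTR (limma adjusted p = 0.0279), with 0.14 between SSCTR and POF (limma adjusted p = 0.652). Leaving out any array of WT or POF ended the call in POF, and leaving out any of the 6 arrays ended that in SSCTR, as did the replicate block (adjusted p = 0.0506 from limma).

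The brightest probes of the lectin pathway proteases went the other way. Masp1 read 10.01 and 10.15 in WT, 9.89 and 10.06 in SSCTR, and 9.17 and 8.93 in POF, a fall of 1.03 on the log2 scale in POF (change -1.03 ± 0.18, limma adjusted p = 0.00728). It was higher in SSCTR than in POF by 0.92 ± 0.18 (limma adjusted p = 0.0110); its second probe changed by -0.36 and -0.16 in these comparisons, and neither passed. Without WT replicate 3 or POF replicate 3 the fall lost its call (limma adjusted p = 0.0524 and 0.0623), as did the rise without SSCTR replicate 3 or POF replicate 3. With the mean of the Masp1 probes the difference between SSCTR and POF was 0.38 (limma adjusted p = 0.173). The brightest Masp2 probe changed by -1.23 ± 0.23 in POF against WT (limma adjusted p = 0.0109), with 1 POF array above background. In SSCTR against POF it changed by 0.87 ± 0.23 (limma adjusted p = 0.0407). The first call ended without WT replicate 2, WT replicate 3 or POF replicate 2. Of 14 alternatives, 10 ended the second call. They include leaving out any 1 array except SSCTR replicate 3, no background correction (0.29, limma adjusted p = 0.101) and the replicate block (limma adjusted p = 0.0591). The second Masp2 probe was above background on the SSCTR arrays alone and entered only through them, so no test of it is given. Its SSCTR level was at least 1.18-fold that in POF and at least 1.18-fold that in WT. In SSCTR against WT the brightest probe went the other way, at -0.35, and did not pass.

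The brighter probe of C1s1, which encodes C1s, was above background on both WT and both POF arrays and on neither SSCTR array. It was at least 1.79-fold lower in SSCTR than in POF (limma adjusted p = 0.00719). Without POF replicate 3 that call ended. The second C1s1 probe was above background on the POF arrays alone. Its SSCTR level was at least 1.11-fold below that in POF. This probe entered only through the POF arrays, so no test of it is given. Fcna, a ficolin, changed by -0.81 ± 0.22 in SSCTR against POF (limma adjusted p = 0.0443). The Fcna call ended in 6 of 15 alternatives, among them leaving out any 1 array but SSCTR replicate 2. Cfp, properdin of the alternative pathway, was higher in POF than in WT by 0.69 ± 0.18 (limma adjusted p = 0.0379); it lost the call without any 1 of the WT or POF arrays and with the replicate block (adjusted p = 0.0604 from limma). C1ra and C1rb, for the other protease of C1, were below the filter.

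Among the terminal components, C7, a part of the pore, was above background on the POF arrays alone. Its POF level was at least 1.61-fold that in WT and at least 1.47-fold that in SSCTR. C7 entered only through the group where it was high, so its calls in both comparisons are not support for these differences. Of 12 alternatives in which it entered, 6 ended the call against WT and 8 the call against SSCTR. Both ended without background correction (limma adjusted p = 0.0759 and 0.118) and without either WT array. The call against SSCTR also ended without either SSCTR array. Without either POF array C7 did not enter. Hc, which encodes C5, and C6 and C8a were below the filter. Among the regulators, Cfi, the protease that degrades C4b and C3b, read 5.02 and 5.04 in WT, 5.04 and 4.61 in SSCTR, and 5.87 and 6.78 in POF. Its POF arrays were the highest and also the furthest apart, and the change was 1.30 ± 0.29 (limma adjusted p = 0.0222) against WT and -1.50 ± 0.29 from POF to SSCTR (limma adjusted p = 0.0110). Without POF replicate 3 these were 0.84 and -1.05, and neither passed. Of 14 alternatives, 4 ended the Cfi call against WT, among them leaving out POF replicate 3 or either WT array. The call against SSCTR also ended without SSCTR replicate 3. Without background correction the Cfi changes were 0.53 and -0.60, still called. On that scale Masp2 changed by -0.43 in POF against WT, and C1s1 by -0.36 and Fcna by -0.47 in SSCTR against POF, also still called. Cd59a, which blocks the pore on the cell surface, changed by 0.07 (limma adjusted p = 0.853) in POF against WT, and Cd55, which breaks up the C3-cleaving enzymes, by 1.03 (limma adjusted p = 0.0829).

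Among the receptors, C1qbp was lower in POF than in WT, at -0.82 ± 0.19 (limma adjusted p = 0.0275), which ended without WT replicate 2, WT replicate 3 or POF replicate 2. The anaphylatoxin receptors C3ar1 and C5ar1 and the integrin subunits Itgam and Itgax of the C3 receptors were below background on all 6 arrays.

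**Figure D4:**
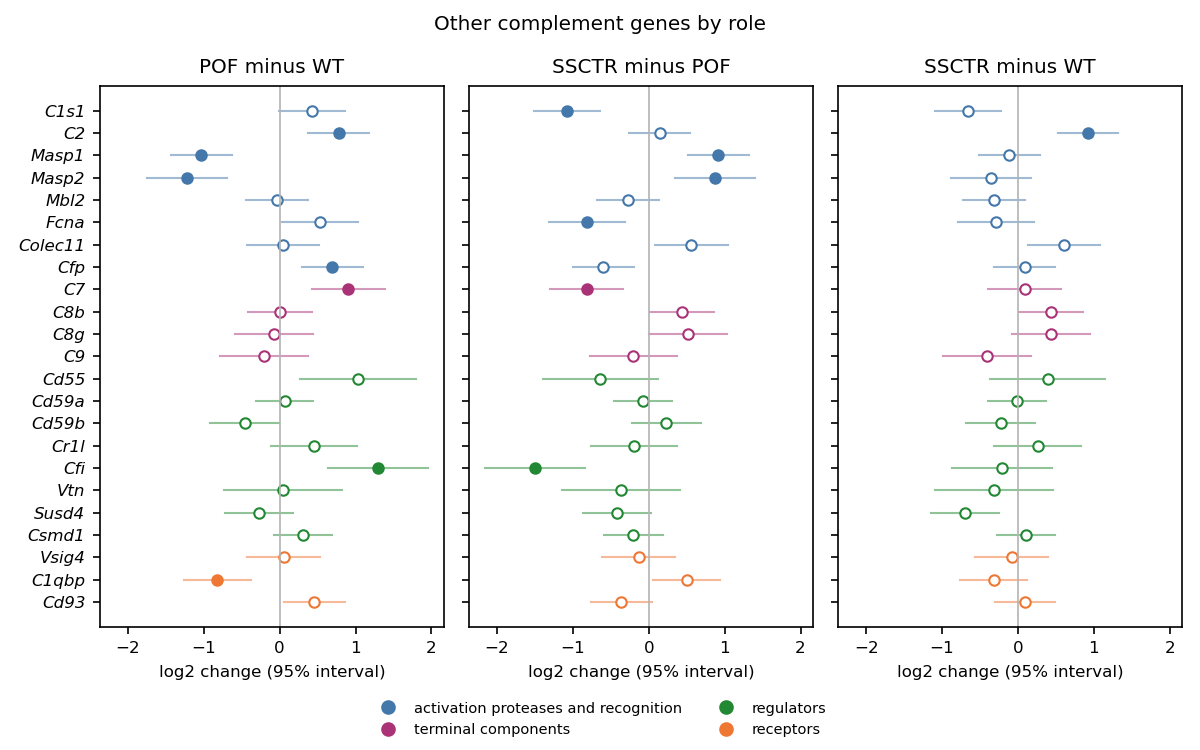
Log2 change with its 95% interval (horizontal axis) of the 23 other complement genes that were tested, coloured by role; filled points passed an adjusted p of 0.05. In POF minus WT, C2, Cfp, C7 and Cfi lie right of 0 and Masp1, Masp2 and C1qbp left of it among the filled points. In SSCTR minus WT C2 is the filled point. C7 entered only through the POF arrays.

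Some markers of other cells also differed between the groups. Of 24 macrophage markers 20 were tested; 7 were higher in POF than in WT, none was lower and 13 did not pass (median 0.55; 6.98% of features were called higher), among them Cx3cr1 at -0.57 (limma adjusted p = 0.102). In SSCTR against POF 9 were lower and 11 did not pass (median -0.66; 7.25% of features were called lower). The summed intensity of these 20 genes was 9903 to 10545 in WT, 9019 to 9844 in SSCTR and 20068 to 24100.4 in POF. Lysozyme genes Lyz1, which did not pass in POF against WT (0.73, limma adjusted p = 0.0526), and Lyz2 made up 59.0% to 70.5% of it; the other 18 markers summed to 3572 to 4064 in WT, 2908 to 2955 in SSCTR and 8178 to 8435 in POF. The sum over the 6 complement genes was 3404 to 3496, 2807 to 2979 and 6277 to 7189 in the same groups. Serping1 made up most of this complement sum on every array. The brightest macrophage markers that passed were Lyz2, a lysozyme (1.51 ± 0.23 in POF against WT), Cd74, the class II chaperone (0.76 ± 0.20), and Laptm5 (1.04 ± 0.17). The Cd74 change in POF against WT lost its call in 8 of 15 alternatives. These include leaving out any 1 of the 6 arrays and the replicate block (limma adjusted p = 0.0643). Cd163 was below background on all arrays, and Ccr2 and Spi1, which encodes PU.1, were above it on 1 array each. How much of the complement result goes with macrophage RNA was not tested.

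Of 15 surface epithelium and oviduct markers 11 were tested, and their sum was 1830 to 1994 in WT, 1291 to 1628 in SSCTR and 7230 to 7611 in POF, with 7 higher in POF than in WT (6.98% of all features) and 8 lower (7.25%) and 1 higher (5.33%) in SSCTR than in POF. The exception was Cdh1, E-cadherin, at 1.01 (limma adjusted p = 0.00689; 0.0581 without POF replicate 3); in POF against WT Cdh1 was at -0.53 and Epcam at -0.54, and neither passed. Among the 11, Ovgp1 had the largest rise in POF against WT, 6.56. It was above background on both POF arrays, 1 WT array and neither SSCTR array. Ovgp1, Dynlrb2 and Msln would not have entered without the POF arrays, where they were high. Their calls are thus not support for these differences. Those of Ovgp1 and Dynlrb2 are counted in both comparisons above, that of Msln in SSCTR against POF. Upk3b made up most of the sum in WT and SSCTR, and Upk3b with Ovgp1 most of it in POF. Of 12 adipocyte markers 7 were tested and 1 passed, Adipoq. Over all features 6.98% were called higher in POF than in WT and 7.25% lower in SSCTR than in POF. Adipoq was higher in POF than in WT (0.87, limma adjusted p = 0.0390) and lower in SSCTR than in POF (-0.96, limma adjusted p = 0.0253). Without POF replicate 3 these were 0.57 and -0.66, and neither passed. The first call also ended without either WT or either SSCTR array and without background correction (0.35, limma adjusted p = 0.0583). It ended too with the authors' values (limma adjusted p = 0.0594) and with no detection filter (limma adjusted p = 0.0854). The second also ended without either SSCTR array and with no detection filter (limma adjusted p = 0.0637). Fabp4, Plin1, Retn and Pparg were below background on all arrays, and the sum ran from 121 to 225 over the 6 arrays. Of 18 tested interferon response genes, 1 was higher and 1 was lower in POF than in WT (median -0.05), while 8 were lower and 1 was higher in SSCTR than in POF (median -0.63), and 4 were lower in SSCTR than in WT (median -0.65). The shares of all features are 6.98% higher and 4.96% lower for the first comparison. They are 7.25% lower and 5.33% higher for the second, and 1.5% were called lower in SSCTR than in WT. Their sum was 7483 to 7866 in WT, 4842 to 5025 in SSCTR and 8049 to 8614 in POF, so SSCTR stood apart on this sum and POF stood near WT. Gbp2 made up the largest part of it on every array. The part of these markers in the complement result was not tested.

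**Figure D5:**
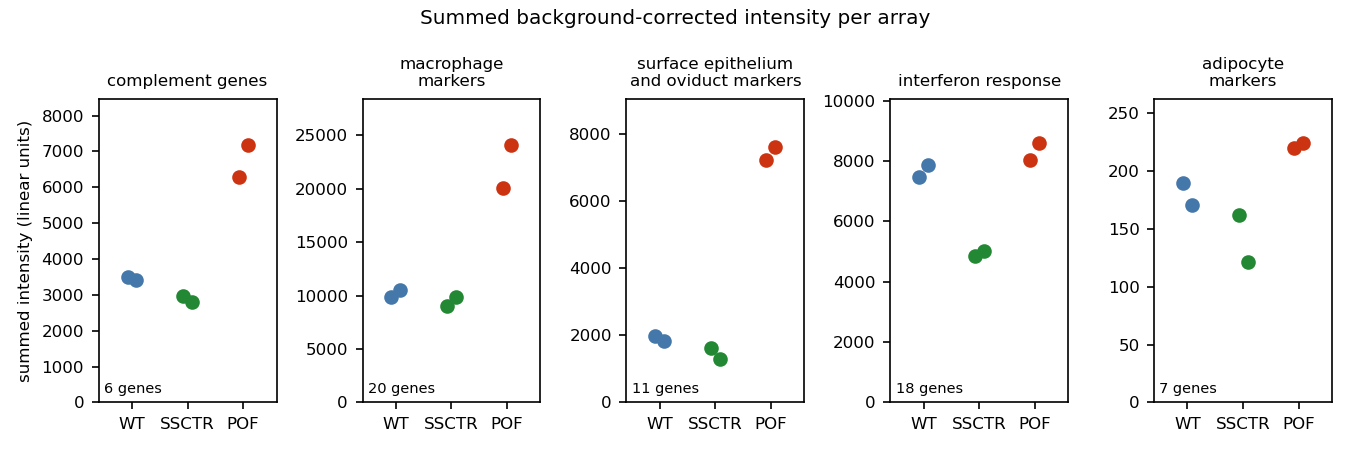
Summed background-corrected intensity (linear units, vertical axis from 0) on each of the 6 arrays for the tested complement genes and for 4 marker lists. Complement, macrophage, epithelial and adipocyte sums are highest on both POF arrays; the interferon sum is lowest on both SSCTR arrays.

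C4a, C4b, C2 and Cfb lie on chromosome 17 in the major histocompatibility complex, where class II genes differ between mouse strains. The class II genes H2-Ea, H2-Eb1 and H2-Aa are given here after their values were seen. H2-Ea is not transcribed in C57BL/6 mice as a rule and is listed as a transcribed pseudogene in the C57BL/6J table. It read 5.94 and 7.61 in WT and 7.26 and 7.33 in SSCTR, and was above background on all 4 of these arrays, against 4.33 and 4.29 in POF, where it was below background on both. POF was at least 4.14-fold lower than WT (limma adjusted p = 0.00794), a call that ended without POF replicate 2 or POF replicate 3 (limma adjusted p = 0.0622 and 0.0700). That limit rests on unlike WT arrays: it is 2.32-fold against WT replicate 2 alone and 7.39-fold against WT replicate 3 alone. H2-Eb1 and H2-Aa went the other way. H2-Eb1 read 8.96 and 8.97 in WT, 9.07 and 9.25 in SSCTR, and 11.32 and 11.50 in POF, 5.42-fold higher in POF than in WT (limma adjusted p = 8.73e-05). H2-Aa was above background on the POF arrays alone, at 7.40 and 6.61, at least 4.85-fold higher than in WT. It entered only through those arrays, so no test of it is given, and without either of them it did not enter. A difference in genetic background between POF and the other groups and the ovarian condition cannot be told apart for any gene compared with POF here.

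By correlation over the 6 arrays with the mean of the standardised C1qa, C1qb and C1qc levels, the most similar of 2505 genes that ranged over at least 1 log2 unit were Spint1 (Pearson r = 0.999), Zcchc18 (0.997), Ifi205 (0.997), Ifi207 (0.996) and Fcgr4 (0.996). The arrays form 3 groups of 2, so these coefficients mostly restate the high POF level. Fcgr4, an activating Fc receptor of myeloid cells, read 7.51 and 7.69 in WT, 7.58 and 7.44 in SSCTR, and 9.66 and 9.44 in POF. Spint1, a protease inhibitor of epithelia, read 6.86 and 7.31 in WT, 6.80 and 6.58 in SSCTR, and 9.34 and 9.33 in POF. Ifi205 and Ifi207 belong to an interferon-inducible family. Ifi205 was below background in WT and SSCTR, with a level in POF at least 2.66-fold that in WT. Its probe was above background on the POF arrays alone, so without either of them it no longer entered. Ifi205 entered through the group where it was high and was picked for that pattern, so no test of it is given.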

How the data were processed

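Per the labels, total RNA from ovaries was extracted with Trizol and a column, DNase treated, and biotinylated cRNA was hybridised. GenomeStudio is named in the submitters' processing notes; its version and a genome build are not given in the sources used here. The authors deposited average signals with detection p-values, per the file headers; the signals have the range of linear intensities, and once sorted the 6 arrays of replicates 2 and 3 differ by at most 0.541%. The deposited replicate 1 columns are the mean of replicates 2 and 3 times 6 (WT), 17 (SSCTR) or 9 (POF) distinct factors; their deposited detection values run above the range of a p-value; these columns were left out. A second deposited table holds normalized intensities and was an alternative.

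The 6 arrays then went through neqc (limma 3.58.1, R 4.3.3; normexp from detection p-values, offset 16, quantile, log2). Probes with a detection p under 0.05 on at least 2 arrays entered (19394), and the brightest stood for a gene, giving 13872 features, 11053 of them named. Probe names come from the platform annotation (34885 probes with 1 symbol, 18 with several, 10378 with none). One limma fit without covariates held all groups (prior degrees of freedom 5.64, residual 3); single probes were fitted and adjusted over all probes that entered. A probe not above background on both arrays of a group got a bound: the brighter mean against the higher of its own value and the lowest detected value of each array. No slide or scan is given, so batches could not be examined. The fit was tested on simulated data. Summed levels are linear, after background correction and less the offset. Named genes are the members, other complement genes past the threshold, up to 3 of the brightest passing macrophage markers, and the 5 genes most like C1q by correlation; likeness to C3 was not run. H2-Ea, H2-Eb1, H2-Aa, Lyz1, Cx3cr1, Cdh1, Epcam, Ovgp1, Dynlrb2, Msln, Upk3b, Gbp2, Cd55, Cd59a, Gdf9, Zp3 and the below-background genes were added after their values were seen. Members and lists were chosen with earlier results of these data known. Alternatives cover background correction, offset, the authors' values, filters, columns, replicate block, probe choice, prior and each array left out; those for genes other than the members were added after seeing the data.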

Additional observations from a re-analysis of the deposited data

How the results depend on the processing

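Under 15 alternatives each, the 18 changes of the 6 tested complement genes gave 270 values: 244 kept direction and side of the threshold, 22 lost the call, 3 gained one and 1 turned, C1qa in SSCTR against WT without WT replicate 2 (-0.14; 0.45 without WT replicate 3). Of the 22 lost calls, 5 were of C1qa in SSCTR against POF and the rest lay in POF against WT. Changes in SSCTR against WT had no call to lose, and the alternatives share most of their data. The tally is thus no measure of robustness. Counts of called members were 5 to 6 for both POF comparisons under settings that keep all arrays. With single arrays left out they were 1 to 6 in POF against WT, 5 to 6 in SSCTR against POF and 0 to 0 in SSCTR against WT. With all 9 columns, 3 of which repeat the others, 3 members (C1qb, C4a and C4b) were called in SSCTR against WT. C1qa lost both its calls with no detection filter (limma adjusted p = 0.0528 and 0.0791). Over all features, counts of calls were 1656, 1745 and 459 in POF against WT, SSCTR against POF and SSCTR against WT. All 9 columns gave 4931, 4969 and 3104; leaving out 1 array gave 607 to 1548, 735 to 1573 and 121 to 343. SSCTR against WT also moved to 857 without background correction, 767 with an offset of 50, 856 with the authors' values and 817 with an intensity trend in the prior. For the other complement genes the counts of 7, 6 and 1 became 13, 12 and 5 with all 9 columns and ranged over 0 to 8, 0 to 4 and 0 to 0 without 1 array. A detection p under 0.01 on all 6 arrays gave 4 and 3 in the POF comparisons, and no detection filter gave 3 in SSCTR against POF. SSCTR against WT gave 2 without background correction, with an offset of 50 or with the authors' values, and 0 with the replicate block. Where the cause of a change was not shown by fewer arrays or repeated columns, the cause was not tested. Samples with the same replicate number did not deviate together (r = -0.02, -0.06 and -0.003 across 13872 features, which are not independent replicates); the replicate block gave 1436, 1535 and 341 called features and 6, 6 and 0 members. No alternative that takes 1 probe per gene changed the probe that stands for a member; without POF replicate 3 another probe stood for Ifi205 (0.46 and -0.15 in the POF comparisons), which is not a change of the same measurement. Dim probes (the second C4a and C4b probes, C7, C1s1, Masp2) are limited by signal over background.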
